A study of Mus musculus with 48 samples.

Results

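Complement is the set of plasma and tissue proteins that tag cells and debris for removal. The 8 genes described here encode 7 of its components and 1 of its inhibitors: *C3*, *C4b*, *C1qa*, *C1qb*, *C1qc*, *C1ra*, *C1s1* and *Serping1*. They were taken by gene symbol from the 56748 genes of the deposited expression table, and the selection rule itself uses no measured value, although earlier results of these data were known when the genes were chosen. All 8 had reads in every library and passed the filter on low counts that left 15637 genes to test. The lowest count of any of them in a library was 12 reads, for *C1qc*.

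RNA was sequenced from the tibialis anterior, a muscle of the lower leg, of 48 male mice aged 39 to 55 weeks. Mice labelled WT carried floxed *Foxp1* without Cre according to the description of the design, whereas their genotype label names C57BL/6J. FoxP1SkmKO mice carried floxed *Foxp1* and a Cre driven by the *ACTA1* promoter, which acts in skeletal muscle fibers and leaves *Foxp1* intact in the macrophages, fibroblasts and vessels of the muscle. KPC mice had murine pancreatic cancer cells injected into the pancreas and control mice had saline. After entrainment to a light cycle all mice were kept in constant darkness, and 2 mice of each genotype and condition were sampled at each of 6 circadian times (CT), every 4 h from CT18 to CT38. There were thus 12 mice in each of the WT control, WT KPC, FoxP1SkmKO control and FoxP1SkmKO KPC groups, and 24 groups of 2 mice once time is taken into account. In nocturnal mice the early times, CT18 and CT22, fall in the active phase.

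The classical pathway of complement opens when C1q, built from the products of *C1qa*, *C1qb* and *C1qc*, binds its target and turns on the proteases C1r and C1s, encoded here by *C1ra* and *C1s1*. C1s cleaves C4, encoded by *C4b*, and the resulting convertase cleaves C3, at which all complement pathways meet. C1 inhibitor, encoded by *Serping1*, blocks C1r and C1s. In tissues C1q is made mainly by macrophages, C1r, C1s and C1 inhibitor are made by fibroblasts among others, and the liver supplies most C3 and C4 of plasma.

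The libraries held 14480867 to 20787784 counted reads with a median of 16602091, and the medians of the 4 groups of 12 lay between 16431858 and 16987200. The summed level of 8 muscle fiber markers was 41878 to 58022 FPKM (fragments per kilobase of transcript, scaled to library size) in every library. Summed over 9 hepatocyte markers, 2 libraries stood apart, with 72.2 FPKM in FoxP1SkmKO control CT22 replicate 1 and 217.5 FPKM in FoxP1SkmKO KPC CT18 replicate 2, whereas no other library exceeded 10.6 FPKM. Another, FoxP1SkmKO KPC CT30 replicate 2, had 21.7 FPKM over 8 neutrophil markers, against at most 6.30 FPKM elsewhere. *Foxp1* itself was at 0.630 ± 0.140 FPKM (SD, n = 12) in WT control, 0.629 ± 0.102 in WT KPC, 0.578 ± 0.0682 in FoxP1SkmKO control and 0.544 ± 0.0744 in FoxP1SkmKO KPC muscle. The genotype difference in *Foxp1*, on the log2 scale, was -0.11 (edgeR adjusted p = 0.459) in control and -0.20 (adjusted p = 0.246) in KPC mice, so that its count over the whole gene did not check the genotype labels. Genotypes are therefore given as labelled.

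In the mm39 coordinates of the deposited tables, the 3 C1q genes lie side by side on the minus strand of chromosome 4, *C1qb* at 136607440 to 136613498, *C1qc* at 136617115 to 136620376 and *C1qa* at 136623228 to 136626114. *C1ra* (chromosome 6, 124489364 to 124500402, plus strand) and *C1s1* (chromosome 6, 124507304 to 124519318, minus strand) are also neighbors. *C4b* (34947354 to 34962856) and *C3* (57510970 to 57535136) are on the minus strand of chromosome 17, and *Serping1* (84595731 to 84605788) is on that of chromosome 2. *C4b*, *C1ra* and *C1s1* have near-identical copies, *C4a*, *C1rb* and *C1s2*, whose mean levels were 0.0453, 0.00932 and 0.0304 FPKM. How the counting assigned reads shared with these copies is not given in the sources used here, so that the values of *C4b*, *C1ra* and *C1s1* are uncertain to that extent.

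RefSeq start-site windows (assembly GRCm38.p6, 250 bases before to 50 after the start) were at hand for *C3*, *C1qb*, *C1qc*, *C1ra* and *C1s1*, and *C1qa*, *C4b* and *Serping1* had none in the table. The windows of all 5 are shown, since the letters counted below are read from them. Each is written 5′ to 3′ on the strand of the gene, *C3* at chr17:57228087-57228386 (minus), *C1qb* at chr4:136886151-136886450 (minus), *C1qc* at chr4:136892865-136893164 (minus), *C1ra* at chr6:124512371-124512670 (plus) and the first of 2 *C1s1* starts at chr6:124542310-124542609 (minus). Capitals mark matches on either strand to TTNNGNAA, letters of a C/EBP-type element, and to GAGGAAGT, a PU.1-type element.
C3: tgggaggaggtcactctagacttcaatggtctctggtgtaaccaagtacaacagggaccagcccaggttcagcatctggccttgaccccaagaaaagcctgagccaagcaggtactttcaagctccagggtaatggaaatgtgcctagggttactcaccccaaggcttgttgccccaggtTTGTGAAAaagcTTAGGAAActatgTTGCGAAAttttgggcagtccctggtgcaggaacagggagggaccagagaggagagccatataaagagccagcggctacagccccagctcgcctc
C1qb: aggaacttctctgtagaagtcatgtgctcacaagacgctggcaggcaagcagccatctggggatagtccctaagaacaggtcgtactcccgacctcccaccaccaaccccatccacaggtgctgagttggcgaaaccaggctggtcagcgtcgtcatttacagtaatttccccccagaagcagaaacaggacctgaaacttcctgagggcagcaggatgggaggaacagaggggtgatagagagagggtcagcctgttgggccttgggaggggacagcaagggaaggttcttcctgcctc
C1qc: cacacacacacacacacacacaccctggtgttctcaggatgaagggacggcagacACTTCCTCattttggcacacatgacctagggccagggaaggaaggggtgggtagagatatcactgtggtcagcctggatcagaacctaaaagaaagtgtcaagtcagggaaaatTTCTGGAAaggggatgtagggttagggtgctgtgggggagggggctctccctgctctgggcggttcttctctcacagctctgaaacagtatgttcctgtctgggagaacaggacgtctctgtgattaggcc
C1ra: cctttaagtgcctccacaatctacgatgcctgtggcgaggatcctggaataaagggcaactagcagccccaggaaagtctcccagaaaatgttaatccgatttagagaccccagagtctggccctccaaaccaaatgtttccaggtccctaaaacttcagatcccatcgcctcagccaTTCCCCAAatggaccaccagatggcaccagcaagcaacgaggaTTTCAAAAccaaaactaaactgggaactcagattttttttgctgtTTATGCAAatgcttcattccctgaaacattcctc
C1s1: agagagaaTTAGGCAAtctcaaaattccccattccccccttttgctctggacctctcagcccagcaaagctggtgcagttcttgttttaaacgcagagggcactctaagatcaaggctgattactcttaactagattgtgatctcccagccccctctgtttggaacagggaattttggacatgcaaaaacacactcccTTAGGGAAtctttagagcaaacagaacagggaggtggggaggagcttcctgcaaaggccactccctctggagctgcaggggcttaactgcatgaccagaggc
TTNNGNAA matched 3 times in the *C3* window, 3 times in that of *C1ra*, 2 times in that of *C1s1*, once in that of *C1qc* and not in that of *C1qb*. That is 4 of 5 genes, and the same letters occurred in 40.7% of the 32851 windows in the table, so that a match is common. GAGGAAGT occurred in 3.2% of windows and in 1 of the 5 genes, *C1qc*. Of the clock elements searched on both strands, the E-box CACGTG (7.15% of windows) was in none of the 5, the D-box TTATGNAA (3.38%), whose letters all fall under TTNNGNAA as well, was in *C1ra*, and the ROR element AGGTCA (16.3%) was in *C3* and *C1qc*. The STAT-type letters TTCNNNGAA (8.3%) were in *C1ra*. A match is a description of the letters and not a site.

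*Serping1* was the most abundant of the 8 per transcript length, at 15.2 ± 4.88 FPKM (SD, n = 48), and *C4b* the least, at 1.95 ± 1.62 FPKM. Between them stood *C3* at 6.91 ± 3.46 FPKM, *C1qa* at 5.47 ± 2.64, *C1qb* at 5.26 ± 2.41, *C1s1* at 4.44 ± 1.04, *C1qc* at 2.51 ± 1.26 and *C1ra* at 2.00 ± 0.574. Within a library *Serping1* exceeded *C3* in 47 of 48 libraries and *C1s1* exceeded *C1qc* in 46. *C3* was above *C1qa* in 37 of 48. The order was not settled between *C1qa* and *C1qb* (26 of 48), *C1qb* and *C1s1* (28 of 48), *C1qc* and *C1ra* (33 of 48) or *C1ra* and *C4b* (33 of 48), whose levels lay within each other's SD. The inhibitor transcript was 2.36 to 4.98 times as abundant as that of its target *C1s1* in every library.

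*C4b* varied most from mouse to mouse, from 0.454 to 9.51 FPKM over the 48 libraries, and *C1s1* least, from 2.41 to 7.31 FPKM. The proteases kept a narrow ratio, *C1s1* being 1.61 to 2.98 times *C1ra* with a median of 2.25. The first 2 C1q chains were close to equal, with a *C1qa* to *C1qb* ratio of 0.624 to 1.64 and a median of 1.07. The *C3* to *C4b* ratio ran from 1.84 to 10.5 over the libraries, with medians of 5.61 in WT control, 2.98 in WT KPC, 5.35 in FoxP1SkmKO control and 3.16 in FoxP1SkmKO KPC muscle. A difference in this ratio between conditions was not tested.

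The first question is whether the tumor changed these transcripts in WT muscle. Averaged over the 6 times, *C4b* rose in WT KPC mice and was the only one of the 8 to pass the test. In control muscle *C4b* was between 0.515 and 3.40 FPKM with a median of 1.16, and in KPC muscle between 1.10 and 9.51 FPKM with a median of 2.01 (n = 12 each). The ranges overlapped, but the mean of the KPC pair was above that of the control pair at each of the 6 times. The fold change was 1.93 (log2 0.95 ± 0.24 SE, 95% interval 0.45 to 1.44, edgeR quasi-likelihood adjusted p = 0.0348). Of all genes tested 280, or 1.79%, were called in this comparison, 182 higher and 98 lower, beside 1 of these 8. That number was 72 to 417 with 1 library left out, the lowest without WT KPC CT38 replicate 2. The adjusted p of *C4b* rose to between 0.0546 and 0.123 when any 1 of 14 of the 24 WT libraries was left out, and its log2 fold change stayed between 0.83 and 1.12 over all 24. Those 14 were control CT18 replicate 1, CT22 replicate 2, CT26 replicate 1, both of CT30, CT34 replicate 2 and CT38 replicate 1, and KPC CT18 replicate 2, CT22 replicate 2, CT26 replicate 2, CT30 replicate 1, both of CT34 and CT38 replicate 2.

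Among the other 7, *C1qb* had the largest difference in WT mice, 1.24-fold (log2 0.31 ± 0.18, adjusted p = 0.426). *C1qc* (log2 0.26), *C1qa* (0.24), *C3* (0.21), *C1ra* (0.10) and *Serping1* (0.07) were also on the higher side and *C1s1* (-0.06) on the lower, with adjusted p between 0.426 and 0.833. The median of the 8 log2 fold changes was 0.22. Each of the 7 intervals held 0, and the widest, that of *C1qc*, ran from -0.18 to 0.70. An average over times can hide opposite directions at single times, and the single times come next.

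**Figure D1:**
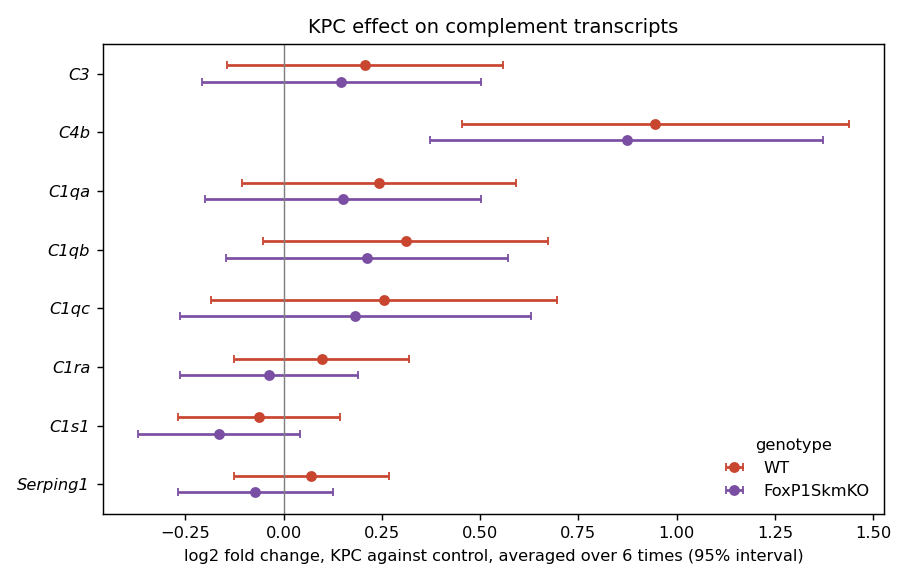
Log2 fold change of KPC against control mice, averaged over 6 circadian times, for the 8 genes in WT (red) and FoxP1SkmKO (purple) muscle, with the 95% interval of the edgeR fit. *C4b* sits near 0.9 in both genotypes with intervals above 0, and the intervals of the other 7 genes cross 0.

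In WT KPC muscle 7 of the 8 transcripts had their highest mean at CT18, in the active phase, and *C1qc* had it at CT22. At CT18 both KPC mice were above both control mice for all 8. *C3* was at 9.36 and 10.1 FPKM in control mice and at 15.3 and 17.8 in KPC mice. *C4b* was at 1.42 and 3.40 in control mice against 5.41 and 9.51, and *Serping1* at 20.8 and 22.1 against 29.1 and 31.6. For the C1q chains, *C1qa* was at 6.37 and 7.30 against 8.02 and 13.5 FPKM, *C1qb* at 5.12 and 5.50 against 9.17 and 10.8, and *C1qc* at 2.92 and 3.41 against 4.59 and 5.18. For the proteases, *C1ra* was at 2.34 and 2.72 against 3.53 and 3.79, and *C1s1* at 5.37 and 5.62 against 7.03 and 7.31. The ratios of KPC to control means thus ran from 1.31 for *C1s1* to 3.10 for *C4b*. Among 10007 genes with a mean of at least 1 FPKM, 15.9% had both WT KPC mice above both control mice at this time.

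With 2 mice a group no single time passed the test across all genes. At CT18 the log2 fold changes ran from 0.38 for *C1s1* to 1.61 ± 0.53 for *C4b*, and the adjusted p values of the 8 were 0.685 to 0.884, with an unadjusted p of 0.00455 for *C4b*. At CT22 all 8 means were again higher in KPC mice, and the 2 pairs did not overlap for *C4b* (0.814 and 1.43 against 2.57 and 4.06 FPKM), *Serping1* (13.7 and 15.5 against 17.0 and 25.4) and *C1s1* (3.93 and 4.23 against 4.37 and 6.80), which is 3 of 8 beside 15.5% of all such genes. Over the 6 times pooled, 1.2% of all edgeR tests in WT muscle were called and none of the 48 for these 8 genes, of which 7 had an unadjusted p under 0.05, 4 of them at CT18. DESeq2 also called none with all libraries in the fit, and 3 when each time was fitted alone, *C3* and *Serping1* at CT18 and *C4b* at CT22. For the times fitted alone the share of all genes called is not given here.

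At CT34 in WT muscle the KPC mean was the lower one for 6 of the 8, *C4b* and *C1qb* being the exceptions. *C3* was at 3.95 and 8.45 FPKM in control and at 3.91 and 5.13 in KPC mice, and *Serping1* at 10.1 and 15.6 against 9.48 and 10.9. Both genes overlapped between conditions, and leaving out 1 library moved the log2 fold change of *C3* between -0.89 and 0.21 and that of *Serping1* between -0.60 and 0.025. For *C1ra* (1.61 and 2.16 in control, 1.32 and 1.57 in KPC mice) and *C1s1* (3.99 and 4.80 against 2.85 and 3.65) the KPC mice lay below both controls. That is 2 of 8, beside 18.1% of the genes with a mean of at least 1 FPKM. *C4b* alone kept a higher KPC mean at each time, with ratios of 3.10, 2.95, 1.29, 1.25, 1.63 and 2.15 from CT18 to CT38. Whether the KPC effect varied over time was tested with all 6 times at once. None of the 8 was called, beside 0.883% of all genes (138, or 1 to 218 with 1 library left out, the lowest without WT control CT26 replicate 1), and the lowest values were those of *C1s1* (edgeR adjusted p = 0.413) and *Serping1* (adjusted p = 0.453). None had an unadjusted p under 0.05 there, and limma-voom called none.

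**Figure D2:**
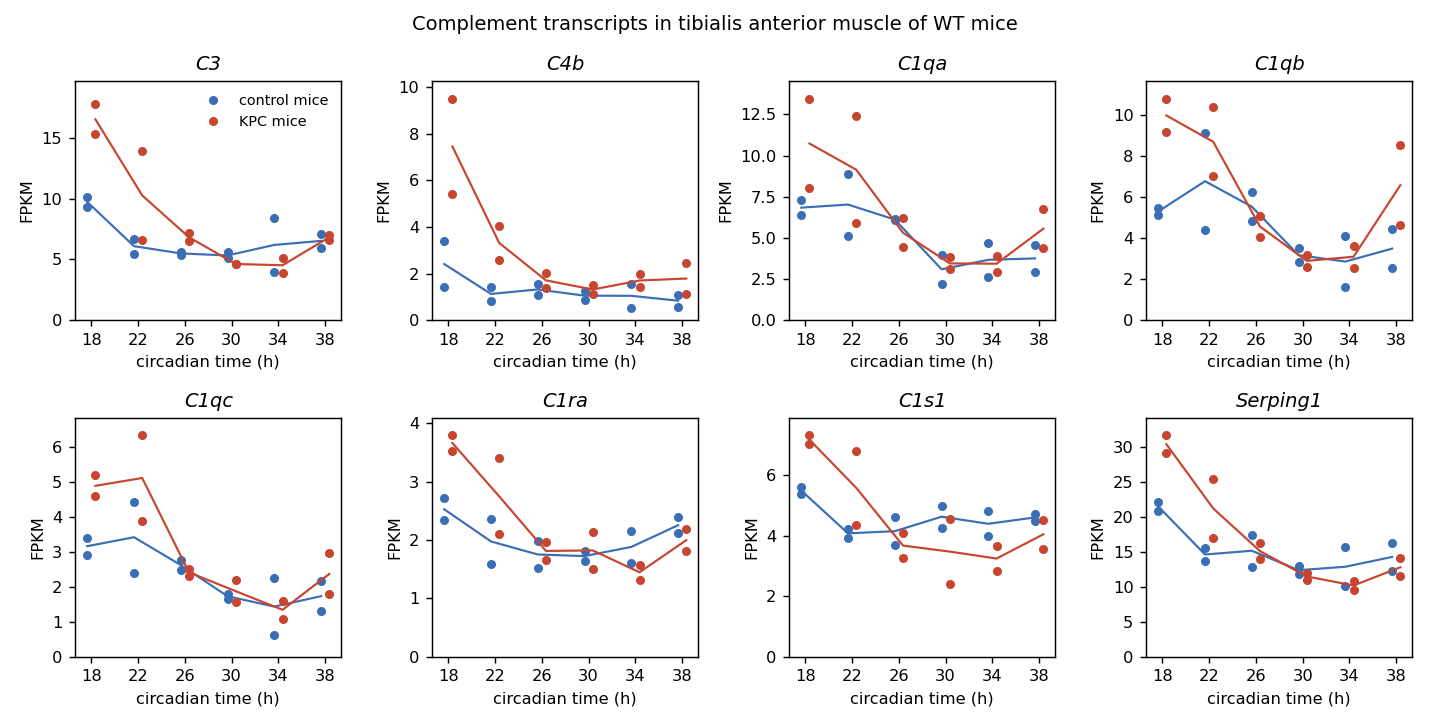
Level in FPKM of each of the 8 transcripts in every WT mouse (points, 2 per condition and time) with lines through the means of 2, against circadian time, control in blue and KPC in red. All 8 panels have both KPC points above both control points at CT18, for *C3* 15.3 and 17.8 against 9.36 and 10.1 FPKM, and at CT34 the KPC points of *C1ra* and *C1s1* lie below both control points. Of all genes with a mean of at least 1 FPKM, 15.9% lie above in this way at CT18 and 18.1% below at CT34.

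Macrophage markers were also at higher levels in the WT KPC mice of CT18 and CT22. The summed level of 12 macrophage markers was 28.1 and 30.0 FPKM in control and 48.7 and 58.6 in KPC mice at CT18, and 20.7 and 32.0 against 33.8 and 43.5 at CT22, and it was 18.3 and 19.9 in KPC mice at CT30. Over all times it was 10.7 to 32.0 FPKM (median 21.8) in WT control and 15.7 to 58.6 (median 26.2) in WT KPC muscle. *Lyz2* weighed most in this sum, with a mean of 14.7 FPKM over the 48 libraries against 1.79 for the next marker, *Fcer1g*. Averaged over times, 11 of 11 tested macrophage markers were on the higher side in WT KPC mice and 0 were called by edgeR, with a median log2 fold change of 0.32. Of the neutrophil markers *S100a8* (log2 2.83, adjusted p = 0.0315) and *S100a9* (log2 2.06, adjusted p = 0.0269) rose, which is 2 of 3 tested. The sum of the 8 neutrophil markers stayed at 0.882 to 3.78 FPKM in WT KPC muscle against 0.114 to 1.56 in WT control muscle. *Ly6g* was at 0 in 45 of the 48 libraries, all control libraries among them, and at most at 0.0728 FPKM. At CT34 the neutrophil sums were 2.27 and 3.59 FPKM in KPC and 0.319 and 0.604 in control mice. Of the 8 complement genes 2, *C4b* and *C1qb*, had the higher KPC mean at that time. Endothelial sums at CT18 were 85.0 and 92.0 FPKM in KPC and 91.9 and 99.5 in control mice. Averaged over times, the endothelial marker *Vwf* rose (log2 0.36, edgeR adjusted p = 0.00242) and *Kdr* fell (-0.27, adjusted p = 0.0412). Among 10 fibroblast markers *Col1a1* (-0.91, adjusted p = 0.0188) and *Col3a1* (-0.71, adjusted p = 0.0255) fell and *Ly6a* (0.45, adjusted p = 0.0141) rose, with a list median of -0.42. At CT18, however, fibroblast sums were 228 and 238 FPKM in KPC and 211 and 227 in control mice. The sums overlapped at CT22, and at CT26, CT30, CT34 and CT38 both KPC mice lay below both controls. Hepatocyte markers summed to 0.801 and 10.6 FPKM in the KPC mice of CT18, against at most 3.94 in WT control muscle. The mouse with 10.6 FPKM was the one with 9.51 FPKM of *C4b* and 17.8 of *C3*. The mouse with 0.801 FPKM had 5.41 of *C4b* and 15.3 of *C3*. Without the former the averaged log2 fold change of *C4b* was 0.87. In whole muscle, more cells of a type and more RNA per cell cannot be told apart, and the part of these cells in the complement values was not tested.

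In FoxP1SkmKO muscle none of the 8 was called for the KPC effect averaged over times, beside 0.428% of all genes (67 of 15637, or 17 to 236 with 1 library left out, the lowest without FoxP1SkmKO KPC CT22 replicate 2). DESeq2 called none either, and 1, *C4b*, had an unadjusted p under 0.05 in edgeR. *C4b* again had the largest difference, with 0.454 to 2.87 FPKM (median 1.09) in control and 0.680 to 5.76 (median 1.99) in KPC mice. Its log2 fold change was 0.87 ± 0.25 (1.83-fold, 95% interval 0.37 to 1.37, adjusted p = 0.0933). The highest control value belonged to the library with 72.2 FPKM of hepatocyte markers and the highest KPC value to the one with 217.5. Without both, the log2 fold change of *C4b* was 0.93 with an adjusted p of 0.0759. Without FoxP1SkmKO control CT22 replicate 1 alone it was 1.07 with an adjusted p of 0.0317, and with CT22 left out of the average 1.13 with an adjusted p of 0.0355, so that the call in this genotype turned on that time. The other 7 ran from -0.16 (*C1s1*) to 0.21 (*C1qb*), with adjusted p between 0.535 and 0.935, and the median of the 8 was 0.15.

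At CT18 the control and KPC mice overlapped for all 8 in FoxP1SkmKO muscle. *C3* was at 6.55 and 12.1 FPKM in control and 5.61 and 18.3 in KPC mice, the latter in the library with liver transcripts. Its log2 fold change at CT18 was 0.38 with both mice and turned to -0.73 without the 2 libraries with hepatocyte markers. *C4b* was at 1.34 and 2.35 against 2.29 and 5.76 FPKM, with a log2 fold change of 1.15 that came to 0.31 without those libraries. *C1qa* was at 5.50 and 12.5 against 4.34 and 6.76 FPKM and *Serping1* at 17.5 and 21.2 against 14.1 and 18.2. None of the 8 had both KPC mice above both controls at CT18, where 24.9% of all such genes did, or at CT22, where 19.2% did. Summed macrophage markers at CT18 were 23.1 and 48.4 FPKM in control and 24.6 and 26.0 in KPC mice of this genotype.

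In FoxP1SkmKO muscle the KPC mean was higher for 2 of the 8 at CT18 and for 7 of the 8 at CT38. At CT38 *C4b* was at 0.613 and 0.831 FPKM in control and at 1.69 and 3.68 in KPC mice, a ratio of means of 3.72. At CT30 *C1qa* was at 1.90 and 2.58 FPKM in control and at 2.75 and 7.51 in KPC mice. The value of 7.51 came from the library with neutrophil markers, which also had the highest macrophage sum of its group of 12, 32.5 FPKM, and without it the direction of *C1qb* and *C1qc* at this time turned. Single times gave 0.0107% of calls over all genes in this genotype and none here, with 3 of 48 at an unadjusted p under 0.05, and DESeq2 called none with all libraries in the fit. The single call when each time was fitted alone was *C4b* at CT38, and the share of all genes called in those fits is not given here. The test of variation over time gave none in edgeR or limma-voom, with 0% called over all genes and p values of the 8 from 0.068 to 0.859.

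**Figure D3:**
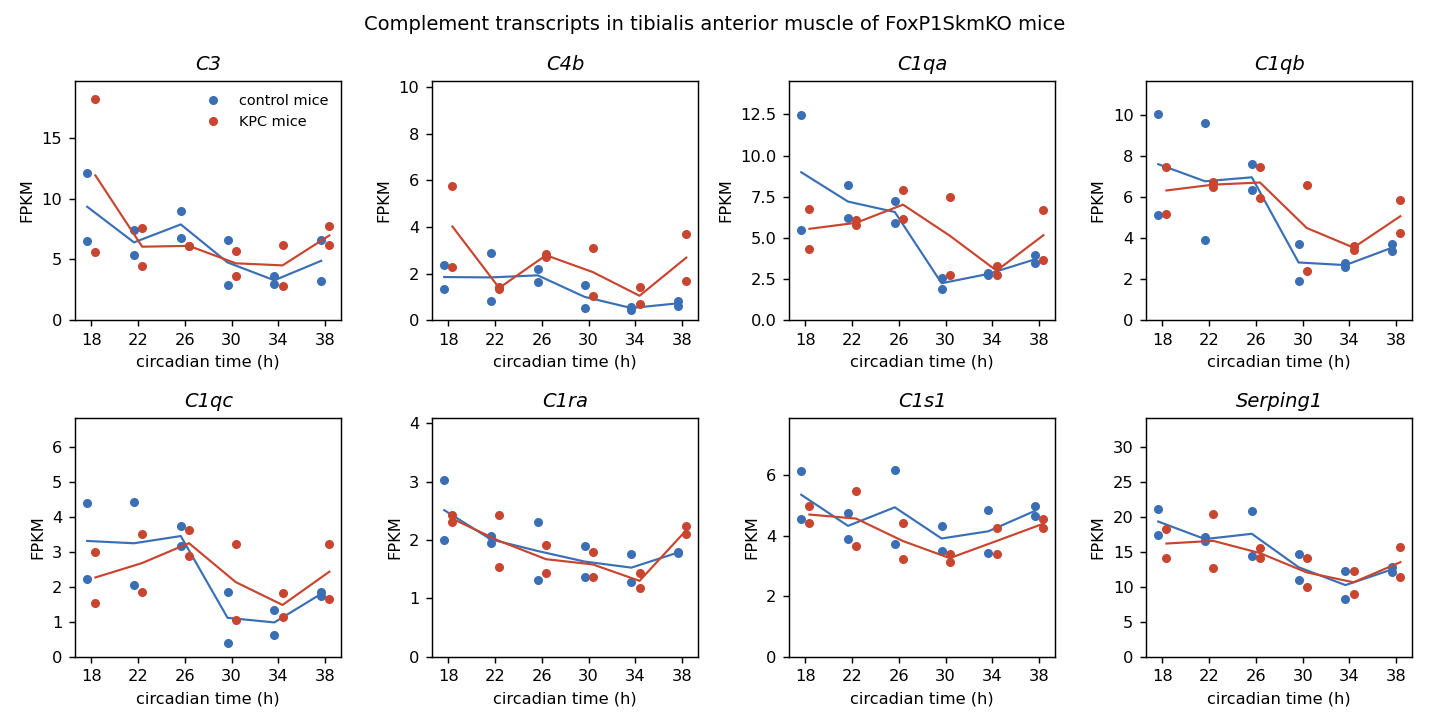
The same plot for FoxP1SkmKO mice, level in FPKM of each transcript in every mouse against circadian time on the same vertical scales as for WT mice, control in blue and KPC in red. Control and KPC points overlap in every panel at CT18 and CT22 except for *C1qa* at CT22, and single libraries stand out, such as 18.3 FPKM for *C3* at CT18.

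Whether the KPC effect depended on genotype was tested directly. Averaged over times, the FoxP1SkmKO minus WT difference was between -0.14 (*Serping1*) and -0.06 (*C3*) on the log2 scale, none was called by edgeR or DESeq2, none had an unadjusted p under 0.05, and no other gene was called by edgeR (0%). For *C4b* the difference was -0.07 with a 95% interval of -0.78 to 0.63, and for *C3* the interval was -0.56 to 0.44. At CT18 the differences were all negative, from -0.38 (*C3*) to -1.32 ± 0.55 (*C1qa*, unadjusted p = 0.0214, adjusted p = 0.386). *Serping1* (-0.73 ± 0.33, unadjusted p = 0.0311, adjusted p = 0.424) and *C1qb* (-1.15 ± 0.57, unadjusted p = 0.0507, adjusted p = 0.479) followed. At CT22 they were again negative for all 8, and that of *C4b* was the largest at any time (-1.94 ± 0.81, unadjusted p = 0.0228, adjusted p = 0.874). Without the 2 libraries with hepatocyte markers that of *C4b* at CT22 was -0.77, and its KPC effect in FoxP1SkmKO mice turned from -0.40 to 0.77. The CT18 differences of *C3* and *C4b* were then -1.49 and -1.30, against -0.38 and -0.46 with all libraries. The sign was mixed at CT26 (4 negative, 4 positive) and CT38 (3 negative, 5 positive). It was positive for 7 of the 8 at CT30, up to 1.04 for *C1qa*, and for all 8 at CT34, up to 0.91 for *C3*, with unadjusted p values of at least 0.12 and 0.158. Over single times 0.0597% of all tests were called and none of these 8, with 3 of 48 at an unadjusted p under 0.05 and none called by DESeq2.

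None of the 8 was called for the genotype itself by edgeR or DESeq2, and 0 in control and 1 in KPC mice had an unadjusted p under 0.05. In control mice the log2 difference, FoxP1SkmKO minus WT, was between -0.17 (*C3*) and 0.09 (*C1qb*), with 3.44% of all genes called. In KPC mice it was between -0.24 and -0.01, with 0.32% of all genes called. The largest was that of *C1ra*, at 1.18 to 2.43 FPKM in FoxP1SkmKO KPC and 1.32 to 3.79 in WT KPC muscle (log2 -0.24 ± 0.11, unadjusted p = 0.0345, adjusted p = 0.418).

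The study sampled a full cycle to ask which transcripts follow a daily rhythm. A sinusoid with a 24 h period was fitted to the FPKM of the 12 mice of each group, and a transcript was called rhythmic at an unadjusted p under 0.01. In WT KPC muscle 6 of the 8 were called, beside 4.22% of 27396 genes: *C1qb* (p = 0.000349), *C1qc* (p = 0.00115), *Serping1* (p = 0.00397), *C3* (p = 0.00589), *C1qa* (p = 0.00951) and *C1ra* (p = 0.00977), each from the F test of the sinusoid (n = 12). *C1s1* (p = 0.0112) and *C4b* (p = 0.0399) missed that threshold (n = 12). In WT control muscle only *C1qa* was called (p = 0.00937, n = 12), beside 4.92% of genes. None was called in FoxP1SkmKO control muscle (4.07% of genes) or in FoxP1SkmKO KPC muscle (2.63%), where the lowest p values were 0.0115 (*C1qa*) and 0.0217 (*C1ra*). No call passed after adjustment over all genes, the lowest adjusted p being 0.0605 for *C1qb* in WT KPC muscle.

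The fitted peaks of the 6 transcripts called in WT KPC muscle lay between CT19.06 (*C1qb*) and CT20.27 (*C1qc*). In WT control muscle the fitted peak of *C1qa*, the one called, was at CT21.29. The other 7 fits there missed the threshold, with p values up to 0.435 (*C4b*, n = 12), and their peak times are not compared. Amplitudes in WT KPC muscle were 39.2% (*C1s1*) to 82.4% (*C4b*) of the mean level, against 8.41% (*C1s1*) to 45.1% (*C1qc*) in WT control muscle, and each gene had the larger amplitude in KPC mice. *C3* fell from a mean of 16.6 FPKM at CT18 to 4.52 at CT34 in WT KPC muscle, a ratio of 3.66, and from 9.75 at CT18 to 5.33 at CT30 in WT control muscle, a ratio of 1.83. *C1s1*, nearly flat in control mice (4.08 to 5.49 FPKM), ran from 3.25 to 7.17 FPKM in KPC mice. In FoxP1SkmKO control muscle the C1q chains had amplitudes of 54.6% to 62.2% and in FoxP1SkmKO KPC muscle of 24.9% to 29.4%, the reverse of the order in WT mice.

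A model with the 2 sinusoid terms by condition tested whether the rhythm itself changed with the tumor. In WT mice the unadjusted p was 0.0136 for *C1qb*, 0.0206 for *C1s1* and 0.0341 for *C3*, and it ran up to 0.203 for *C1qa*. The adjusted p over 29593 genes was 0.752 for all 8, and 0% of genes were called. In FoxP1SkmKO mice p was 0.134 to 0.895 and again 0% of genes were called. The call of a rhythm in one group and not in another is therefore not a shown difference between them.

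The count of 6 in WT KPC muscle rested on single mice. It was 2 without CT18 replicate 1, CT22 replicate 2 or CT34 replicate 2, and 3 without CT18 replicate 2, CT26 replicate 1, CT26 replicate 2, CT30 replicate 1 or CT34 replicate 1. Fitting the sinusoid to counts in edgeR, with an adjusted p under 0.05 and one estimate of spread over all 48 libraries, called all 8 in WT KPC muscle (11.2% of genes), *C1qa* and *C1qb* in WT control muscle (18.4%), *C4b*, *C1qa*, *C1qb*, *C1qc* and *Serping1* in FoxP1SkmKO control muscle (8.27%) and none in FoxP1SkmKO KPC muscle (6.93%). In that fit the lowest adjusted p in WT KPC muscle was that of *Serping1*. Macrophage markers were again beside this result, with 6 of 12 called rhythmic in WT KPC muscle on FPKM (*Csf1r*, *Mrc1*, *Lyz2*, *Cd14*, *Tyrobp* and *Fcer1g*), 0 of 12 in WT control and in FoxP1SkmKO control muscle and 1 of 12 (*Csf1r*) in FoxP1SkmKO KPC muscle. Other lists had calls too. In the order WT control, WT KPC, FoxP1SkmKO control and FoxP1SkmKO KPC, they were 0, 3, 1 and 0 of 10 fibroblast markers. For 5 erythroid markers they were 0, 2, 0 and 0, and for 8 endothelial markers 3, 2, 4 and 0.

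**Figure D4:**
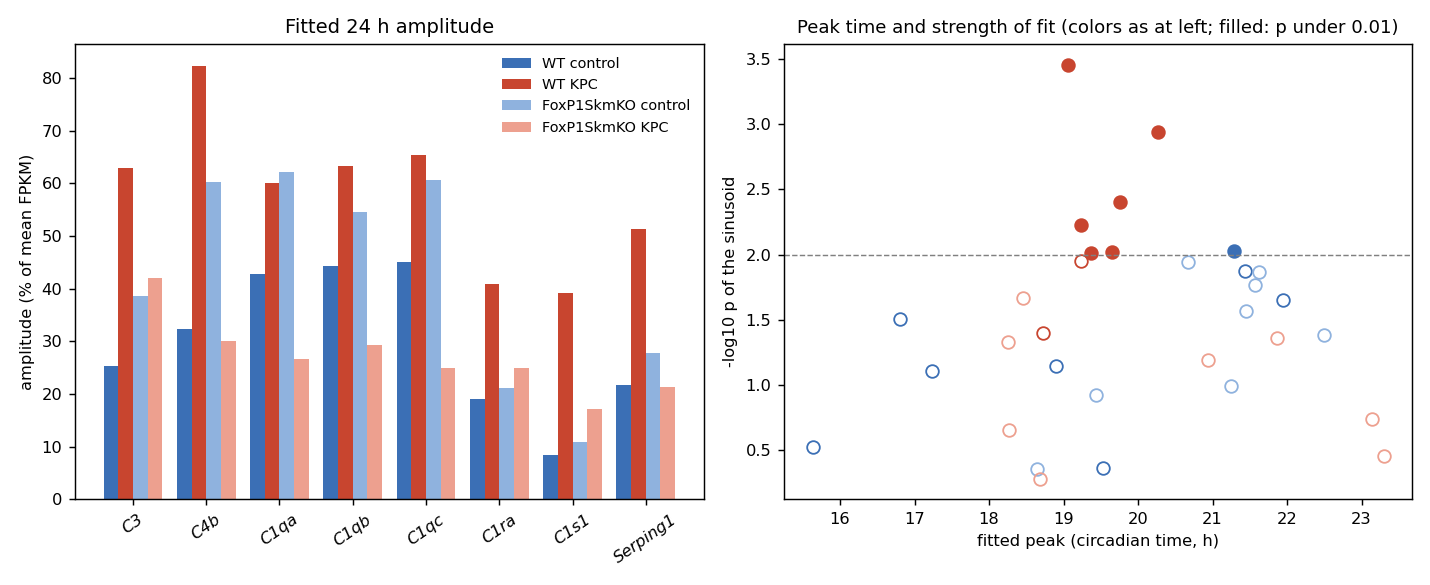
Left, fitted 24 h amplitude of each transcript as percent of its mean FPKM in the 4 groups of 12 mice; right, circadian time of the fitted peak against -log10 of the unadjusted p, in the same colors, filled where p is under 0.01 (dashed line at 0.01). The WT KPC bar is the tallest of its set for all 8 but *C1qa*, where that of FoxP1SkmKO control is higher, and 6 of the 7 filled points are WT KPC points, with peaks between CT19.06 and CT20.27.

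The mean of CT18 and CT22 over that of CT30 and CT34 gives the same course in levels. For *C3* this ratio was 1.37 in WT control, 2.93 in WT KPC, 1.96 in FoxP1SkmKO control and 1.96 in FoxP1SkmKO KPC muscle. For *C4b* it was 1.69, 3.57, 2.43 and 1.74, and for *C1qa* 2.05, 2.89, 3.21 and 1.41 in the same order. The 2 libraries with hepatocyte markers enter the FoxP1SkmKO ratios. At CT18 the KPC library with them had 18.3 FPKM of *C3* and 5.76 of *C4b*, against 5.61 and 2.29 in the other mouse. At CT22 the control library with them had 2.87 FPKM of *C4b*, against 0.801 in the other mouse. The summed macrophage markers had ratios of 1.53, 2.48, 2.45 and 1.28 and the fibroblast markers 1.29, 2.09, 1.37 and 1.31. *Lyz2* weighed most in the macrophage sum and *Gsn*, at a mean of 82.2 FPKM, in the fibroblast sum. Muscle fiber markers stayed between 0.990 and 1.07.

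Across the 48 libraries the 8 transcripts varied together. Pearson's r of log2 CPM (counts scaled to library size) was 0.91 for *C1qa* with *C1qb*, 0.90 for *C1qb* with *C1qc*, and 0.83 for *C1ra* with *C1s1* and for *C1ra* with *Serping1*. *C3* was closest to *Serping1* (0.85) and *C4b* to *C3* (0.80) among the 8, and the lowest pair was *C4b* with *C1s1* (0.39). *Serping1* did not stand with the proteases alone, its r being 0.81 with *C1qa* and 0.80 with *C1qc*, against 0.77 with *C1s1*. After each group mean was taken away, so that time, tumor and genotype no longer entered, the C1q pairs stood at 0.74 to 0.84 and *C1ra* with *C1s1* at 0.85. These are descriptions over libraries that share depth and tissue makeup, and no p is given.

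The genes whose profile was most like these transcripts were as follows. For the mean of the C1q chains they were *Lyz2* (r = 0.91), *Csf1r* (0.88), *Laptm5* (0.88), *Cd74* (0.86) and *Spi1* (0.86), and the mean of the macrophage markers had r = 0.93, or 0.90 without group means. For the mean of *C1ra*, *C1s1* and *Serping1* they were *Tgfbi* (0.89), *Rnase4* (0.88), *Svep1* (0.87), *Lrp1* (0.85) and *Htra3* (0.85). The fibroblast markers had r = 0.76 with that mean (0.85 without group means) and the macrophage markers 0.83 (0.68). For *C4b* the list was *Serpina3n* (0.83), an acute-phase protease inhibitor, then *Ccl6* (0.80), *C3* (0.80), *Fcgr2b* (0.78) and *Ctss* (0.78). For *C3* it was *Serping1*, *C1ra*, *C4b*, *F13a1* (0.78) and *Rnase4* (0.76). With *C3* the macrophage markers had r = 0.82, the fibroblast markers 0.54, the neutrophil markers 0.40 and the hepatocyte markers 0.26. With *C4b* these were 0.78, 0.21, 0.69 and 0.30 in the same order.

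**Figure D5:**
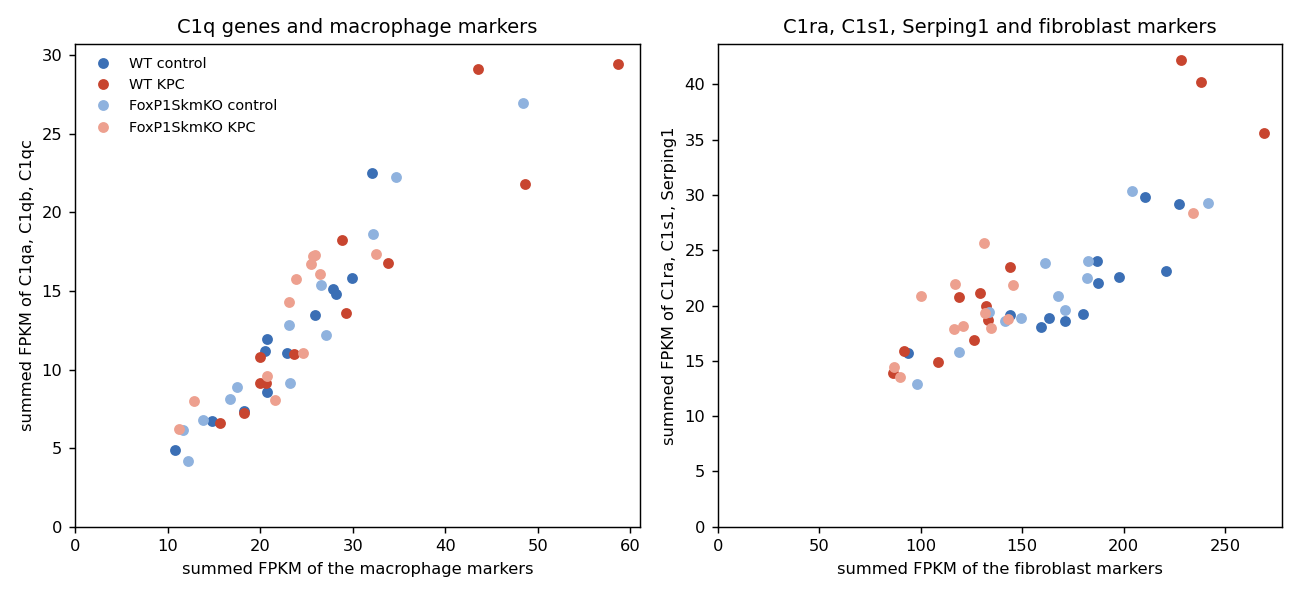
Summed FPKM of *C1qa*, *C1qb* and *C1qc* against summed FPKM of 12 macrophage markers (left), and of *C1ra*, *C1s1* and *Serping1* against 10 fibroblast markers (right), 1 point per library in the colors of the 4 groups. The C1q sum is higher where the macrophage sum is higher in all 4 groups, the WT KPC libraries of CT18 with 48.7 and 58.6 FPKM of macrophage markers farthest to the right. *Lyz2* weighs most in the macrophage sum and *Gsn* in the fibroblast sum.

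The rest of the pathway was read from lists of 46 other complement genes, of which 30 passed the filter. They divide into 7 of 13 initiation genes, 2 of 3 of the alternative pathway, 4 of 7 terminal components, 10 of 14 regulators and 7 of 9 receptors. Passing the filter did not mean a level in most libraries. The terminal genes *C8a* and *Hc* and the regulator *C4bp* were at 0 FPKM in 43, 34 and 35 of the 48 libraries. Their highest values were 1.14, 0.902 and 0.519 FPKM. None of the 30 was called for the KPC effect in WT muscle, beside 1.79% of all genes, with list medians from -0.09 (initiation) to 0.55 (receptors) on the log2 scale. In FoxP1SkmKO muscle 1 was called, beside 0.428% of all genes. This was the receptor *Cd93*, an endothelial and myeloid surface protein once described as a C1q receptor. It fell by 0.27 on the log2 scale (adjusted p = 0.0162), from 6.28 to 10.2 FPKM (median 8.38) in control to 5.38 to 9.61 (median 6.92) in KPC muscle. In WT mice it was at -0.11 (adjusted p = 0.325), and the difference between genotypes had an adjusted p of 0.764. Whether the call of *Cd93* held with single times or libraries left out was not tested. *Clu*, clusterin, an inhibitor of the terminal complex, was the most abundant of the 46 at 12.0 ± 1.62 FPKM (SD, n = 48) and was not called in any of the 5 averaged comparisons. *Cfb* and the terminal genes *C6*, *C8b* and *C9* did not pass the filter, with means of at most 0.0268 FPKM.

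On FPKM, rhythm was called in 2 of the 39 other complement genes with varying values in WT control muscle (5.13%, beside 4.92% of all genes) and in 4 of 43 in WT KPC muscle (9.3%, beside 4.22%). It was called in 2 of 45 in FoxP1SkmKO control (4.44%, beside 4.07%) and in 1 of 46 in FoxP1SkmKO KPC muscle (2.17%, beside 2.63%). *Cfp*, properdin of the alternative pathway, and *Vtn*, vitronectin, were called in WT control, WT KPC and FoxP1SkmKO control muscle. *Itgam* and *Itgb2*, which encode the chains of complement receptor 3, were called in WT KPC muscle and *C2* in FoxP1SkmKO KPC muscle.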

How the data were processed

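Total RNA of tibialis anterior muscle was poly-A selected and sequenced commercially. The submitters' processing notes name mm39, HISAT2 2.0.5 and DESeq2 1.20.0, while the methods of the study name a different aligner, and the strand setting of the counting is not given in the sources used here. Read counts per gene were deposited by the authors in 12 tables of 4 libraries each, and FPKM values of all 48 libraries in a further table. The count tables omit genes with almost no reads, and 28541 such reads, at most 1 per gene and library, were recovered from the deposited FPKM. The fold changes, p-values and size-factor-scaled values that the authors deposited were not used. No deposited column was left unmatched to a sample.

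Counts were fitted with edgeR 4.0.16 (R 4.3.3), with TMM scaling, a filter on low counts by group, 1 coefficient for each of the 24 groups and a quasi-likelihood F test, adjusted by Benjamini-Hochberg over 15637 genes and called at an adjusted p under 0.05. The fit had 24 residual degrees of freedom and was tested on simulated data. Rhythm was fitted on FPKM in Python 3.11.15, with SciPy 1.17.1, as described with the results. The 8 genes and all gene lists were chosen with earlier results of these data known. Other complement genes were named if called in an averaged comparison or at a mean of 10 FPKM or more, likeness named the 5 genes of highest r, and cell-type markers came from lists. The alternatives were size factors by RLE, no filter, a replicate block, removal of a gene length trend, DESeq2 1.42.0, limma-voom 3.58.1, other pseudocounts on log2 FPKM and leaving out each time or library.

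Replicate numbers did not pair the mice: over 276 pairs of groups the correlation of replicate differences was -0.32 to 0.23 with a median of -0.0038. Replicates of a group are separate mice, they differed by 4.63 to 15.4 times the sampling noise (chi-square per degree of freedom), and no 2 libraries shared all counts.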

Additional observations from a re-analysis of the deposited data

How the results depend on the processing

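Of 3544 single values recomputed under an alternative, 3475 kept their direction and side of the threshold, 18 lost the call, 35 gained it and 16 reversed, besides 238 sign changes of values within 1 SE of 0. With no filter on low counts the fit gave each gene the spread of the trend, over 33218 genes. For the KPC effect it called 2 of the 8 genes in WT mice (794 of all genes) and 1 in FoxP1SkmKO mice (527). For genotype it called 1 in control mice (933 of all genes) and 2 in KPC mice (470). For variation over time it called 5 in WT mice (806 of all genes) and 4 in FoxP1SkmKO mice (905). At any single time it called 4 in WT mice, 3 in FoxP1SkmKO mice and 5 for the difference. The numbers over all genes at single times are not given here. The call of *C4b* in WT mice became 0 of 8 with CT18, CT22, CT34 or CT38 left out of the average, and 0 to 1 of 8 with 1 library left out. In FoxP1SkmKO mice it was 1 without CT22 and 0 to 1 with 1 library left out. DESeq2 on the 4 libraries of a comparison called 3 genes in WT mice, *C3* and *Serping1* at CT18 and *C4b* at CT22, and 1 in FoxP1SkmKO mice, *C4b* at CT38. The share of all genes called in those fits is not given here.

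The replicate block left *C4b* called in WT mice (adjusted p = 0.0403) and changed no other edgeR call of the 8, while rhythm calls with the block were 2 in WT control and 5 in WT KPC muscle. Rhythm calls in WT control muscle were 0 on log2 (FPKM + 0.1) and on log2 (FPKM + 1), 0 after adjustment over all genes or over genes of at least 1 FPKM, 2 in edgeR and 0 to 4 with 1 library left out. In WT KPC muscle they were 0 after adjustment over all genes, 2 (*C1qb* and *C1qc*) over genes of at least 1 FPKM and 2 to 7 with 1 library left out. In FoxP1SkmKO control muscle they were 1 on either log2 scale, 5 in edgeR and 0 to 4 with 1 library left out, and in FoxP1SkmKO KPC muscle 0 to 1. The cause of these changes was not tested.

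Without the liver and neutrophil libraries, left out after seeing the data, the KPC effect in FoxP1SkmKO mice at CT30 reversed to -0.22 for *C1qb* and -0.10 for *C1qc*, and the difference between genotypes to -0.082 and -0.21. With 1 library left out, single-time log2 values crossed 0 for *C3* (-0.89 to 0.21) and *Serping1* (-0.60 to 0.025) in WT mice at CT34. In FoxP1SkmKO mice they did so for *C1qa* (-1.13 to 0.035) and *C1qc* (-1.11 to 0.062) at CT18, *C1s1* (-0.70 to 0.034) and *Serping1* (-0.49 to 0.037) at CT26, *C1qb* (-0.22 to 1.24) and *C1qc* (-0.10 to 2.48) at CT30, *C3* (-0.22 to 0.92) at CT34 and *C1qa* (-0.016 to 0.85) at CT38. The difference at CT30 ran from -0.082 to 1.37 for *C1qb* and from -0.21 to 2.37 for *C1qc*. A group of 1 mouse was then assumed to vary like the others. Genes called over the whole table ranged from 118 to 794 for the KPC effect in WT and from 3 to 527 in FoxP1SkmKO mice across the settings other than leaving out 1 library, the largest number with no filter. With 1 library left out they ranged from 316 to 768 for genotype in control mice (538 with all), from 17 to 203 in KPC mice (50), from 0 to 4 for the difference of the KPC effect and from 0 to 53 for its variation over time in FoxP1SkmKO mice (0 each).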

Other observations

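The myeloid list next to these genes can be read per gene. *Lyz2*, a lysozyme of macrophages, was the most abundant macrophage marker at a mean of 14.7 FPKM, with 6.35 to 33.2 FPKM over the 48 libraries, and *Ms4a7* was at 0 in 3 libraries. *C1qa* at a mean of 5.47 FPKM stood below *Lyz2* and above every other of the 12 genes of the list. The highest of those was *Fcer1g* (1.79), and *Csf1r* (1.27), *Cd68* (1.09), *Cd163* (1.10) and *Mrc1* (0.848) were among them. *Cfd*, the adipocyte protease of the alternative pathway, spanned the most FPKM of the other complement genes, from 0.366 to 22.5 FPKM.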
